A study of Drosophila melanogaster with 384 samples.

Results

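The regions described here were the 628 rows of the count table that lie on chromosome 4 of Drosophila melanogaster, out of 68775 rows in all. They were chosen by their chromosome alone, and no measured value entered the choice. They covered 706 kb and ranged in length between 58 and 10172 bp. A region that overlapped 500 bp on either side of an annotated transcription start site (TSS) was called a promoter region, and every other region a distal one, which gave 429 distal regions and left 31.7% as promoter regions. They were set beside the 67941 regions of the other large chromosomes, which are X and the arms 2L, 2R, 3L and 3R, in the same class.

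The assay was single-cell ATAC-seq on the Fluidigm C1, in which the Tn5 transposase cuts open chromatin of cells held in separate chambers. The cells were sorted as alive and GFP-positive from 200 pooled eye-antennal discs of third-instar larvae dissociated at 37°C. GFP was driven by an enhancer of senseless (sens), a gene of the R8 photoreceptor and of its precursors, so the sorted group, named sens-GFP+, holds what that enhancer marks and not 1 defined cell type. The labels give 1 group without animal, dissection or chip, and 72 of the labelled cells had a column in the table. Cells were therefore summed as 1 sample, no test or p-value was computed, and the 95% intervals below (exact Poisson for counts, Wilson for shares, exact conditional for ratios) cover counting error only, since the reads carry no molecular identifiers and are not independent molecules. Total counts per cell ranged between 908 and 5892, with a median of 2694.5. Of the markers set beside the label, the gene windows (5 kb upstream and introns) of the photoreceptor genes glass (gl) and elav had 17.3 and 8.03 counts per kb, or percentiles 99.4 and 90.2 of all genes, and sens had 11.99 at percentile 96.97. The other R8 genes atonal and boss were at percentiles 47.6 and 30.6. Of the glial genes repo was at percentile 31.8 and moody at 50.8, of the hemocyte genes eater was at 13.8, srp at 32.04 and Hml at 80.3, and of the adepithelial genes htl was at 15.6 and twi at 32.8. Marker levels of other cell types thus overlapped those of atonal and boss, and their part in the counts of chromosome 4 was not tested.

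Chromosome 4, the dot chromosome, is the smallest chromosome of the fly, does not normally recombine in meiosis, and is dense in transposable elements. Most of it carries heterochromatin protein HP1a and methylated histone H3K9, placed there largely by the methyltransferase Eggless (SETDB1), yet its genes are expressed, and the protein POF binds the transcribed ones. Several of its genes matter in the developing eye: eyeless (ey) and twin of eyeless (toy) encode the Pax6 factors of eye specification, cubitus interruptus (ci) the transcription factor of Hedgehog signalling, pangolin (pan) the TCF factor of Wnt signalling, shaven (sv) a Pax2 factor of cone cells, and onecut a homeodomain factor of photoreceptors and other neurons.

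Chromosome 4 regions were mostly rich in A and T, and 47.8% of them overlapped an annotated transposable element, but some of its most covered regions looked quite unlike each other. The 4 stretches below are examples, each read from the release 6 genome, plus strand, in lower case. They come from exon-free regions near or in ci, toy, dati and zfh2 that were among the most covered. Capitals mark the first of 6 searched motif cores found in the region: TGATAC, the core bound by Sine oculis, near ci and toy, GAGAGAG, the core of GAGA factor, in dati, and the reverse complement of TGTGACC, the core of Motif 1, in zfh2. A match is a description of the letters and does not show that a protein binds there.
ci, upstream, chr4:58634-58833: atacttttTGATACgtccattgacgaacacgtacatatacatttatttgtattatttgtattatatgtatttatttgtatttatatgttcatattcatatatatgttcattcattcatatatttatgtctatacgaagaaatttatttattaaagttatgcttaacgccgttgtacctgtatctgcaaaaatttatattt
toy, upstream, chr4:989028-989227: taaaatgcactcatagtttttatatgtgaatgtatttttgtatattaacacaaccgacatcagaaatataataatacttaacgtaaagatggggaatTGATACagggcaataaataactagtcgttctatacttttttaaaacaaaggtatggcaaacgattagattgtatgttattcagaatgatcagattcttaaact
dati, intron, chr4:385134-385333: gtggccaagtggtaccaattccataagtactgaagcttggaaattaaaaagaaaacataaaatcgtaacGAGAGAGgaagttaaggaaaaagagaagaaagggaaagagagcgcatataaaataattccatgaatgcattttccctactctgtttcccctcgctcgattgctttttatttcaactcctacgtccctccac
zfh2, intron, chr4:508317-508516: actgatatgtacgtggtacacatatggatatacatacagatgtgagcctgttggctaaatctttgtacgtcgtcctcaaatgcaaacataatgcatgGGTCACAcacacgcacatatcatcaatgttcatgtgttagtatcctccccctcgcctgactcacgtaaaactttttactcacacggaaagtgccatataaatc
The stretch near ci had 22.5% G and C and that near toy 27.5%, while those in dati and zfh2 had 39% and 41.5%. Stretches of regions near lncRNA:CR44024 and in Sox102F, picked in the same way but not printed, had 55% and 45%. The first of these regions held none of the 6 cores, and the second the core of GAGA factor.

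The most frequent transposable element was INE-1, a short element with 60.8% of the 566 annotated insertions on chromosome 4, and it carried copies of another core. The core of DREF, TATCGATA, which reads the same on both strands, occurred 89 times in the chromosome 4 regions, and 44 of these cores lay inside an INE-1 copy (49.4%, interval 39.3 to 59.6%). On the other chromosomes 170 of 2835 cores did (5.996%, interval 5.18 to 6.93%). INE-1 itself was far more common on chromosome 4, in 34.4% of its regions against 1.90% of those on the other chromosomes. The shares of cores were not adjusted for this. Whether an INE-1 copy on chromosome 4 holds the core more often than one elsewhere was not tested. The 4 copies below are shown in the orientation of the element, with 16 bases on each side and the core in capitals. The stretches shown hold no exon sequence and come from the regions with most counts.
INE-1 near fuss, chr4:980611-980650, plus strand: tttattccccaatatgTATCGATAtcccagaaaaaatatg
INE-1 in zfh2, chr4:528923-528962, minus strand: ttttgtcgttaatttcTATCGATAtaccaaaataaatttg
INE-1 near asRNA:CR45126, chr4:459271-459310, minus strand: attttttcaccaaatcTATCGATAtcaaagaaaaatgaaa
INE-1 near Ank, chr4:130779-130818, minus strand: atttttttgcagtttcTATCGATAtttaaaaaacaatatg
The regions that hold these copies had 25, 11, 8 and 5 counts over the 72 cells. Over all 40 bases, the other 39 exon-free stretches had between 16 and 37 bases equal to the first one, with a median of 32. The 8 bases of the core, by which all were chosen, are counted in and equal in each.

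Taken whole, chromosome 4 was slightly less covered than the other chromosomes in both classes. Its promoter regions had 932 counts, or 3.83 counts per kb (interval 3.59 to 4.09), against 4.45 (4.42 to 4.48) on the other chromosomes, a ratio of 0.862 (0.807 to 0.9197). Its distal regions had 782 counts, or 1.69 per kb (1.57 to 1.81), against 1.93 (1.92 to 1.94), a ratio of 0.875 (0.815 to 0.939). The single arms ranged between 4.21 (3L) and 4.80 (X) for promoter regions and between 1.77 (3L) and 2.25 (X) for distal regions. Both values of chromosome 4 lay below each of them, but its distal interval included the value of 3L. The median region showed a smaller gap at promoters, with 2.38 counts per kb on chromosome 4 and 2.64 on the others, where 2L had 2.35. For distal regions the medians were 1.19 and 1.41. The ratio of promoter to distal density was 2.27 (2.06 to 2.50) on chromosome 4 and 2.30 (2.28 to 2.33) on the others, where it ranged between 2.11 on 2L and 2.43 on 3R. Chromosome Y, which is heterochromatic throughout, had 0.193 counts per kb (0.169 to 0.220) over all its regions. Their median length was 5541 bp, against 923.5 bp on chromosome 4. The labels do not give the sex of the larvae, so how many of the cells carried a Y is not known. The value of Y was not adjusted for this.

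**Figure D1:**
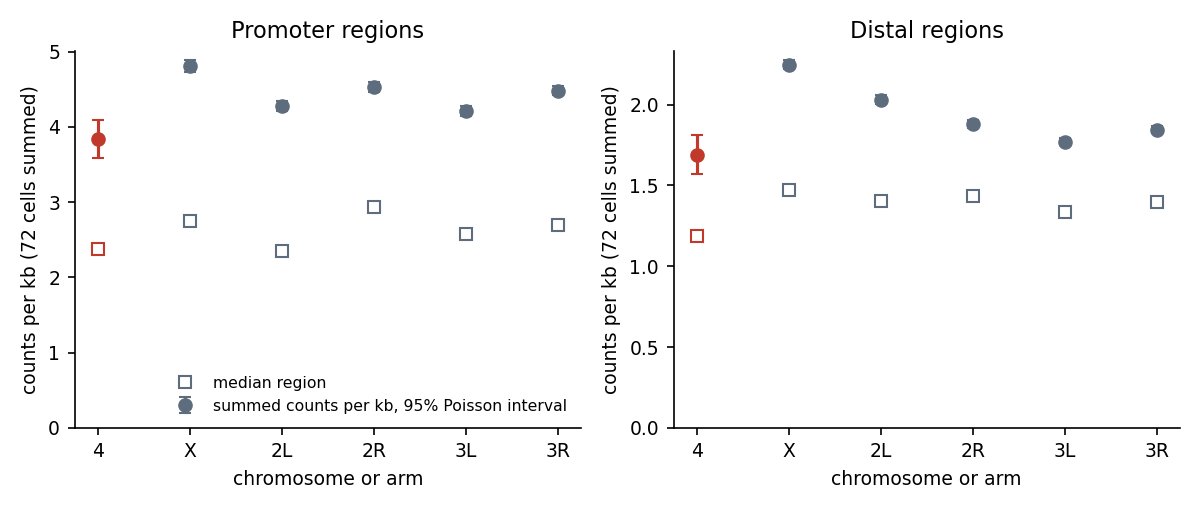
Counts per kb of promoter regions (left) and distal regions (right) by chromosome or arm, with the 72 cells summed; filled points are summed counts over summed length with exact 95% Poisson intervals, open squares are the median region. Chromosome 4 has the lowest summed density in both panels, at 3.83 and 1.69 counts per kb, while its median promoter region (2.38) is close to that of 2L (2.35). Its distal interval includes the value of 3L (1.77).

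The lower density of the whole chromosome was not found once regions were split by overlap with transposable elements. An annotated transposable element overlapped 300 of the 628 chromosome 4 regions (47.8%), against 4.38% on the other chromosomes. Regions with such an overlap had fewer counts per kb on every chromosome and arm. How reads with several matches were handled is not given, and the part of lost or misplaced reads in these lower values was not tested. Among promoter regions without one, chromosome 4 had 5.36 counts per kb and the other chromosomes 4.70, a ratio of 1.14 (1.05 to 1.23). Among distal regions without one, it had 2.68 against 2.14, a ratio of 1.25 (1.13 to 1.38). Both values rested on few regions. Without the Asator promoter region, which had 42 counts, the promoter ratio was 1.08 (0.998 to 1.17). Without the region upstream of ci, which had 37 counts, the distal ratio was 1.15 (1.03 to 1.27), and without the 5 most covered distal regions it was 0.942 (0.838 to 1.06). The split by transposable elements was chosen after the data had been seen.

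Long regions often held a transposable element, so the classes were also split by length. Of the 68 promoter regions of chromosome 4 with an element, 20 were over 2000 bp, against only 2 of those without. Among promoter regions without an element, chromosome 4 was above the other chromosomes at 500 to 1000 bp (6.14 against 5.12 counts per kb, ratio 1.20, 1.08 to 1.33) and above 1000 up to 2000 bp (5.58 against 4.66, ratio 1.20, 1.06 to 1.35). Without the Asator region of chromosome 4, the second ratio was 1.05 (0.925 to 1.19), and without its 2 most covered regions, at lncRNA:CR44024 and toy, the first was 1.11 (0.999 to 1.24). Among distal regions without an element the values were 2.45 against 2.64 at 500 to 1000 bp (ratio 0.927, 0.811 to 1.06) and 3.32 against 2.19 above 1000 up to 2000 bp (ratio 1.52, 1.29 to 1.77). The second value rested on 4 regions of chromosome 4, upstream of ci, in zfh2 (2 regions) and at chr4:404712-405951, which held 93 of its counts (56.02%). Without the region upstream of ci the ratio was 1.20 (1.01 to 1.43), and without all 4 it was 0.737 (0.578 to 0.927), on the other side of 1. Distal regions with an element were less covered on chromosome 4 in these classes, at 1.60 against 1.97 (ratio 0.811, 0.665 to 0.982) and 1.26 against 1.61 counts per kb (ratio 0.786, 0.665 to 0.924). Above 2000 bp they were more covered, at 0.827 against 0.458 (ratio 1.81, 1.44 to 2.24).

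**Figure D2:**
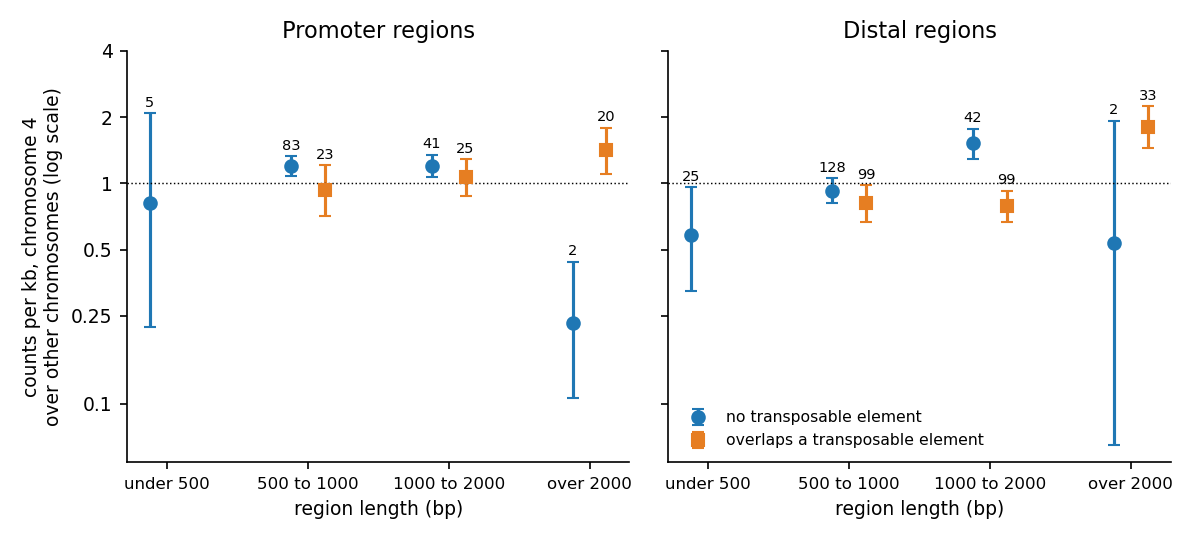
Counts per kb on chromosome 4 divided by those on the other chromosomes (log scale), by region length and by overlap with a transposable element, for promoter (left) and distal (right) regions; bars are exact 95% conditional intervals and the small numbers give the chromosome 4 regions in each class. Promoter regions without an element lie at 1.20 in both middle classes, and distal regions with an element at 0.811 and 0.786; the only distal region with an element under 500 bp had 0 counts and is not drawn.

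Base composition also set chromosome 4 apart. Its median GC content was 32.2% in promoter and 32.9% in distal regions, against 39.8% and 40.9% on the other chromosomes, where density rose with GC. In regions of up to 35% GC, which make up 62.6% of its promoter length, chromosome 4 had 3.46 counts per kb and the other chromosomes 2.98, a ratio of 1.16 (1.06 to 1.27). In distal regions of the same class the values were 1.45 and 1.46, a ratio of 0.995 (0.9003 to 1.10). At 40 to 45% GC the 22 distal regions of chromosome 4 had 2.98 against 2.05 counts per kb, a ratio of 1.45 (1.16 to 1.80).

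Chromosome 4 had more counts per kb than the stretches of the other chromosomes next to their centromeres, which are heterochromatic too, but the regions differed in length. Stretches of the same length as the assembled chromosome, 1348131 bp, were taken from the centromeric end of X and of each arm. Promoter regions had 3.83 counts per kb on chromosome 4 against 1.13 (1.03 to 1.23) in these stretches, a ratio of 3.41 (3.05 to 3.81). Distal regions had 1.69 against 0.510 (0.487 to 0.533) in 769 regions, a ratio of 3.31 (3.05 to 3.604). Single stretches ranged between 0.318 and 2.18 counts per kb for promoter and between 0.330 and 1.15 for distal regions, with X the highest in both. The share of distal regions with a transposable element was 54.1% on chromosome 4 and 30.2% in the stretches. Listed regions of the stretches were longer on average in both classes, and the comparison was not matched for length. Over the whole of X and the arms, distal regions had 2.62 counts per kb at 500 to 1000 bp and 0.692 over 2000 bp. For promoter regions these values were 5.09 and 2.30. The part of length in the ratios to the stretches was not tested.

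Along chromosome 4 itself the density was uneven. In sixths of the chromosome, promoter regions ranged between 1.47 counts per kb (1.03 to 2.02) in the last sixth, next to the telomere, and 6.27 (5.55 to 7.07) in the third sixth, which holds Asator, zfh2 and mav. The other 4 sixths lay between 3.19 and 4.22. Distal regions ranged between 1.14 (0.883 to 1.44) in the last sixth and 2.17 (1.88 to 2.50) in the third. The share of promoter regions with a transposable element was 30.8% in the last sixth and 37.5% in the third, and that of distal regions 64.4% and 50.6%.

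By annotation, distal regions that touched an exon, of a coding or a non-coding gene, had a lower density on chromosome 4 than elsewhere. They made up 59.1% of the distal length of chromosome 4, against 24.5% on the other chromosomes, and had 1.28 against 1.89 counts per kb, a ratio of 0.673 (0.604 to 0.748). Intronic distal regions had 2.24 against 2.23 (ratio 1.00, 0.884 to 1.14), and intergenic ones 2.34 against 1.59 (ratio 1.47, 1.27 to 1.70). Among distal regions without a transposable element, the 40 intronic ones had 4.64 against 2.43 counts per kb (ratio 1.90, 1.62 to 2.22) and the 22 intergenic ones 3.401 against 1.85 (ratio 1.83, 1.42 to 2.33). The exon-overlapping ones had 1.84 against 2.02 (ratio 0.911, 0.783 to 1.05). Single regions weighed on these values too. Without the region upstream of ci and the pair in zfh2, which held 75 of the intronic counts (46.3%), the intronic ratio was 1.14 (0.911 to 1.404), and without its 2 most covered regions the intergenic ratio was 1.27 (0.909 to 1.72). Without the second region upstream of ci, the exon-overlapping ratio was 0.819 (0.697 to 0.955). Distal regions with an element lay above those of the other chromosomes in each place, with a ratio of 1.18 (0.999 to 1.39) for exon-overlapping, 1.65 (1.32 to 2.04) for intronic and 3.34 (2.74 to 4.03) for intergenic regions, the first with an interval that includes 1. These ratios were not matched for length. By length, as given above, such regions lay below the others at 500 to 1000 bp (0.811) and above 1000 up to 2000 bp (0.786). Only over 2000 bp did they lie above (1.81).

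The counts were sparse, so most regions were seen in few cells. On chromosome 4, 497 regions had at least 1 count, 35.5% had exactly 1, and 20.9% had none, where a count of 0 allows up to 3 (one-sided 95% limit). The 38 regions with 10 or more counts held 36.1% of all 1714 counts. A count was present in 90.5% (85.6 to 93.8%) of the promoter regions, against 85.3% on the other chromosomes and 85.4% over all 6 together. For distal regions it was 73.9% (69.5 to 77.8%), against 80.2% on the other chromosomes and also 80.2% over all 6. In at least 5 cells a count was found in 61 promoter regions (30.7%, 24.7 to 37.4%), against 25.2% of all promoter regions, and in 28 distal regions (6.53%, 4.55 to 9.27%), against 8.57% of all distal regions. Chromosome 4 thus had more of its promoter regions and fewer of its distal regions with any count, while for 5 cells both intervals included the share of all regions. These shares were not matched for length. At 500 to 1000 bp a count was in 90.6% against 85.6% of promoter and 70.9% against 78.3% of distal regions. Above 1000 up to 2000 bp it was in 89.4% against 89.1% of promoter and 78.7% against 83.9% of distal regions.

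Few regions of chromosome 4 reached the most covered 10%. Above the 90th percentile of counts per kb of the other chromosomes, which was 12.9 for promoter and 5.15 for distal regions of at least 200 bp, lay 15 promoter regions (7.69%, 4.72 to 12.3%), beside 9.98% of all promoter regions. Of the distal regions, 28 of 418 did (6.70%, 4.67 to 9.51%), beside 9.97% of all distal regions. Only the distal share lay with its interval below that background. Of the regions without a transposable element, 13 promoter regions (10.2%) and 18 distal regions (9.68%) passed, against 10.3% and 10.4% of such regions on the other chromosomes.

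The most covered region of chromosome 4 per kb was distal and lay upstream of ci. The region chr4:58634-59686, whose first bases are printed above, lies 1593 bp upstream of the TSS of ci, in an intron of the antisense RNA gene asRNA:CR43957. It had 37 counts (26.1 to 51) in 23 cells, with 0 in 49 cells and at most 3 in 1 cell, or 35.1 counts per kb (24.7 to 48.4), which placed it at percentile 99.9 of the distal regions of the other chromosomes. Its neighbour chr4:59687-60616 had 20 counts in 14 cells, or 21.5 per kb. The 4 promoter regions of ci itself had 16 counts in 12 cells, or 5.23 per kb (2.99 to 8.49). Most of these lay in chr4:55868-56719, over a TSS of ci and of asRNA:CR43957, with 14 counts in 11 cells, or 16.4 per kb (8.98 to 27.6). Both upstream regions thus had more counts per kb than any promoter region of ci. Whether they act on ci was not tested.

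Promoter regions held most of the other places at the top. The region over the TSS of mav, a TGF-beta ligand, and of the microRNA gene mir-954 (chr4:625584-626401) had 28 counts in 22 cells, or 34.2 per kb (22.7 to 49.5). The region over the TSS of Asator, a kinase of the tau-tubulin family (chr4:488432-489905), had 42 counts, the most of any on the chromosome, in 27 cells, or 28.5 per kb (20.5 to 38.5). In 45 cells it had no count, and the highest value was 4 in 1 cell. The 2 adjacent promoter regions of toy had 14 counts in 12 cells (24.2 per kb, upstream of the TSS) and 16 counts in 14 cells (23.8 per kb, over the TSS). A promoter region of pan (chr4:68722-70046) had 31 counts in 21 cells, or 23.4 per kb. Promoter regions of Sox102F, an HMG-box factor, and zfh2, a zinc-finger homeodomain factor, had 13 counts each, in 9 and 10 cells, or 23.4 and 21.96 per kb. A promoter region of the long non-coding RNA gene lncRNA:CR44024 (chr4:426640-427214) had 17 counts in 14 cells, or 29.6 per kb. With 51.3% GC it was one of only 4 promoter regions of the chromosome above 45%, and these had 13.8 counts per kb together.

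The other distal regions among the 10 most covered were intronic, exon-overlapping or intergenic. An intronic region of dati, a zinc-finger factor (chr4:385134-385738), had 14 counts in 11 cells, or 23.1 per kb (12.6 to 38.8). Adjacent intronic regions of zfh2 (chr4:506545-507680 and chr4:507681-509011) had 17 and 21 counts in 15 and 19 cells, or 15.0 and 15.8 per kb. An intergenic region 1394 bp from fuss, a gene of the Ski family of co-repressors (chr4:979883-981548), had 25 counts in 16 cells, or 15.0 per kb (9.71 to 22.2). It holds the first INE-1 copy printed above and was one of 2 regions with a transposable element among these 10, the other lying 1397 bp from Sox102F with 7 counts in 6 cells. Another intergenic region (chr4:404712-405951) had 18 counts in 11 cells, or 14.5 per kb. A region of pan 2457 bp from its TSS had 10 counts in 10 cells, and another that overlaps sv and Cals had 10 counts in 7 cells. No region among the 10 most covered of all or of the distal regions had a count in more than 27 of the 72 cells.

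Gene by gene, the promoter regions of chromosome 4 genes were at the level of genes elsewhere. Of the 80 annotated protein-coding genes, 78 had a listed promoter region, CG33521 and JYalpha being without. All 78 had at least 1 count there, whereas 8.04% of all genes with a listed promoter region had none. The genes were not matched for the length of these regions. The median gene had 4.07 counts per kb on chromosome 4 and 3.67 on the other chromosomes, and 44 of the 78 lay above the median of the others. Above the 90th percentile of 12.04 counts per kb lay 5 genes (6.41%), beside 9.98% of all genes, and below the 10th percentile of 0.597 lay 1 (1.28%), beside 9.94%. The 5 were toy, zfh2, Tdg and mav with 23 to 30 counts each, and CG11155, whose 1 promoter region of 58 bp held a single count and gives 17.2 per kb with an interval of 0.437 to 96.1. The gene below was mGluR.

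**Figure D3:**
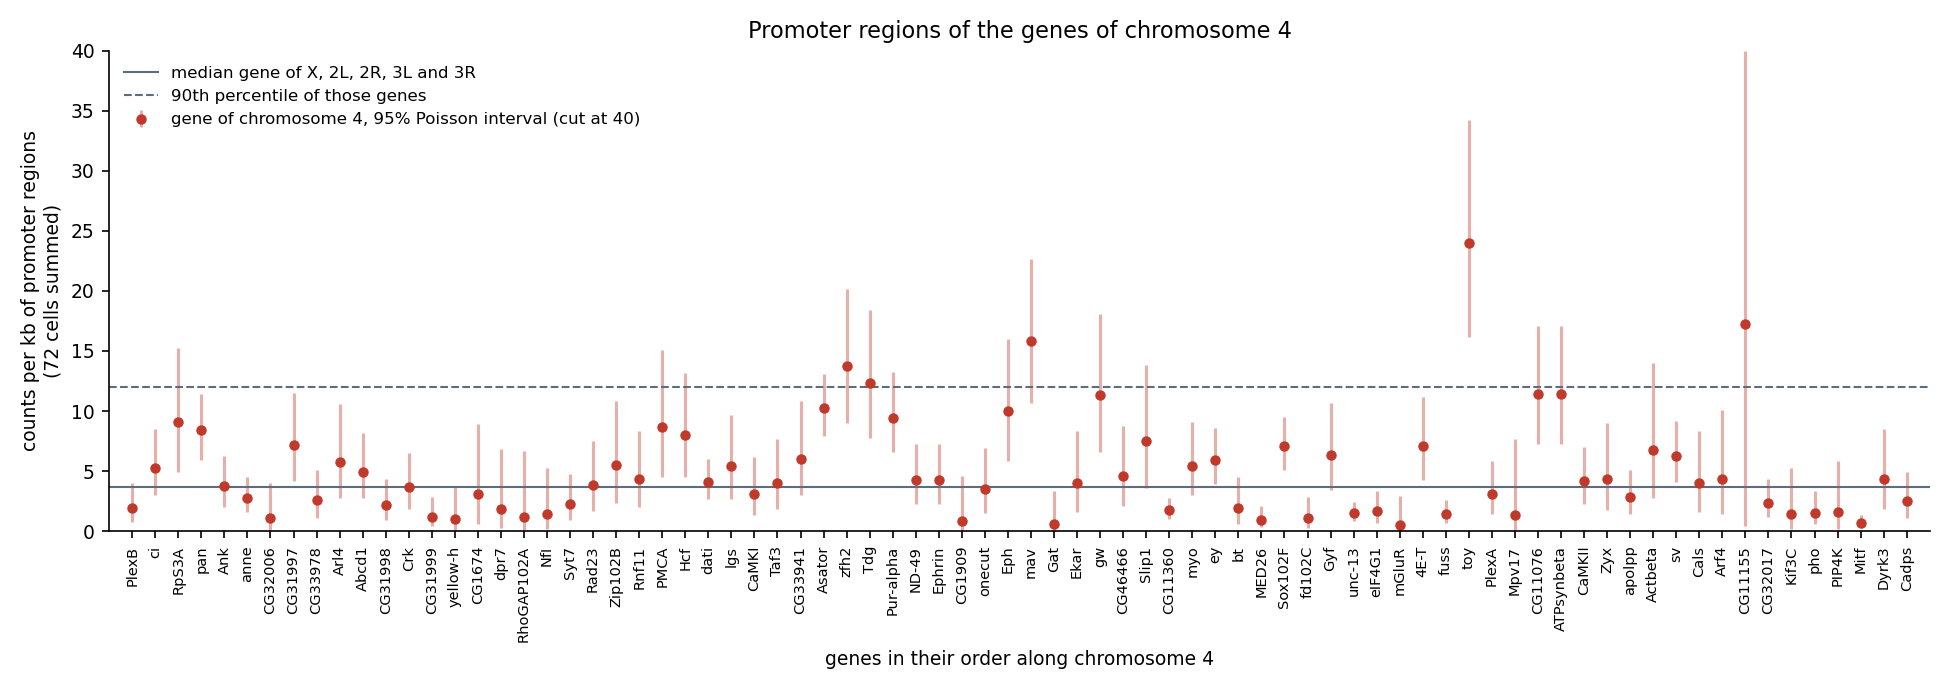
Counts per kb of the promoter regions of 78 protein-coding genes in their order along chromosome 4, with exact 95% Poisson intervals; the solid line is the median gene of the other chromosomes (3.67) and the dashed line their 90th percentile (12.04). The gene toy stands highest at 24 counts per kb, and neighbours that share a promoter region, such as CG11076 and ATPsynbeta, have the same value.

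Genes of transcription factors and developmental regulators had promoter densities of 0.651 to 24 counts per kb. Among the 14 of this list, 9 had promoter densities above the median of the other chromosomes, 2 above their 90th percentile and none below their 10th, with a list median of 5.33 counts per kb against 3.67 for all genes elsewhere. The gene toy had 30 counts in 21 cells, or 24 per kb (16.2 to 34.3), at percentile 99.2. The second Pax6 gene, ey, had 28 counts in 22 cells over 4 longer promoter regions, or 5.96 per kb (3.96 to 8.61), at percentile 66.5, and the intervals of the pair did not overlap. The gene zfh2 had 26 counts, or 13.7 per kb (8.98 to 20.1). Of the others, pan had 8.38, Sox102F 7.06, sv 6.23, lgs, the Wnt co-activator Legless, 5.43, and dati 4.10 counts per kb. Onecut had 3.53 (1.53 to 6.96). At the low end stood Mitf, a bHLH factor, with 0.651 (0.262 to 1.34), fuss with 1.405, NfI, a nuclear factor I protein, with 1.46, and pho, a DNA-binding Polycomb group protein, with 1.55.

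Genes of general cell functions had promoter densities of 1.62 to 12.3 counts per kb. Of these 14 genes, 11 lay above the median of the other chromosomes, 1 above the 90th percentile and none below the 10th, with a list median of 6.05. The highest was Tdg, a thymine DNA glycosylase, with 23 counts, or 12.3 per kb (7.80 to 18.5), in regions partly shared with the divergent gene Pur-alpha. ATPsynbeta, the beta subunit of the mitochondrial ATP synthase, had 11.4, gw, the GW182 protein of microRNA silencing, 11.3, and RpS3A, a ribosomal protein of the small subunit, 9.08. The lowest were eIF4G1, a translation initiation factor, with 1.64 and PIP4K, a phosphoinositide kinase, with 1.62, from 2 counts.

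Neuronal genes had the lowest list median. Of the 15 genes of neuronal signalling, adhesion and synapse, 7 lay above the median of the other chromosomes, none above the 90th percentile and 1 below the 10th, with a list median of 3.06. This list held Taf3, a subunit of the general transcription factor TFIID, which had 4.04. The receptor gene Eph had 17 counts in 13 cells, or 9.99 per kb (5.82 to 15.99), whereas its ligand gene Ephrin had 4.26 (2.27 to 7.28). PMCA, a calcium pump of the plasma membrane, had 8.65. The synaptic genes unc-13 and Syt7 had 1.52 and 2.30, dpr7 1.88, and mGluR, the metabotropic glutamate receptor, 0.524 (0.0133 to 2.92) from a single count. Of the 5 muscle and other genes, 4 lay above the median of the other chromosomes. The TGF-beta family ligand genes mav and Actbeta had 15.8 (10.7 to 22.6) and 6.78 (2.72 to 13.96), and bt, the muscle protein projectin, had 1.92.

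Gene windows, the 5 kb upstream of each TSS plus introns, gave a lower picture than promoters. The median gene had 2.74 counts per kb on chromosome 4 and 2.90 on the other chromosomes, and 35 of 80 lay above the median of the others. Above the 90th percentile lay 2 genes (2.50%), beside 9.96% of all genes, and below the 10th lay 7 (8.75%), beside 9.99%. The 5 highest were ci with 86 counts, or 8.91 per kb, at percentile 92.8, Mpv17, a mitochondrial membrane protein, with 8.75, RpS3A with 7.92, Actbeta with 6.96, and mav and Gat, a GABA transporter whose window held the same 35 counts, with 6.90 each. A window can take in promoter regions of neighbours. That of Mpv17, with 24 counts, spans the promoter regions of CG11076 and ATPsynbeta, which had 23, while its own promoter region had 1. That of RpS3A, with 55 counts, holds a pan promoter region of 31, while its own promoter region had 14. The 5 lowest were dpr7 with 0.589, MED26, a Mediator subunit, with 0.670, mGluR with 0.787, PIP4K with 0.830 and CG31999 with 0.862. The gene toy, which led at promoters, had 3.69 in its window, at percentile 60.5, and onecut, with 3.53 at its promoter regions, had 5.96.

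Several of the searched motif cores occurred at different shares on chromosome 4 and on the other chromosomes. Besides the DREF, GAGA factor, Motif 1 and Sine oculis cores spelled out above, the search took CAGGTG, the core of an E-box bound by Atonal-type factors. It also took ACCGGTT and its reverse complement, the core of the epithelial factor Grainyhead. Both strands were searched for all 6 cores. The DREF core occurred in 12.1% (9.36 to 15.6%) of distal regions of chromosome 4, against 2.32% on the other chromosomes, and in 15.1% against 7.29% of promoter regions. In regions without a transposable element the shares were 4.06% against 1.76% of distal and 8.40% against 6.97% of promoter regions. The E-box was scarce on chromosome 4, in 6.60% (3.90 to 10.96%) of distal regions without an element, against 25.4%, and in 15.3% against 24.4% of such promoter regions. The GAGA core was in 5.08% (2.78 to 9.09%) against 12.6% of such distal regions. The Sine oculis core, which is richer in A and T, was in 24.9% (19.4 to 31.4%) against 20.2% of them, and in 33.6% (26.1 to 42.04%) against 20.4% of promoter regions without an element. In promoter regions without an element, Motif 1 was in 6.11% (3.13 to 11.6%) against 10.7% and the Grainyhead core in 1.53% (0.420 to 5.40%) against 4.53%. Both intervals included the share of the other chromosomes. Base composition differs between the chromosomes as given above, and its part in these shares was not tested. None of the shares above is matched for region length. With regions of 500 to 1000 bp only, with or without an element, the DREF core was in 6.60% of promoter regions of chromosome 4. The share on the other chromosomes was 7.41%, which the chromosome 4 interval included. In distal regions of this length the core was in 7.93% against 1.42%. In promoter regions without an element, those with the DREF core had 5.46 counts per kb and those without it 5.35 on chromosome 4, against 5.57 and 4.63 on the other chromosomes. In distal regions without an element the order was the reverse, with 2.35 and 2.70 on chromosome 4, against 0.979 and 2.201 on the others. Over all promoter regions of chromosome 4 it was 2.71 with the core and 4.13 without.

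**Figure D4:**
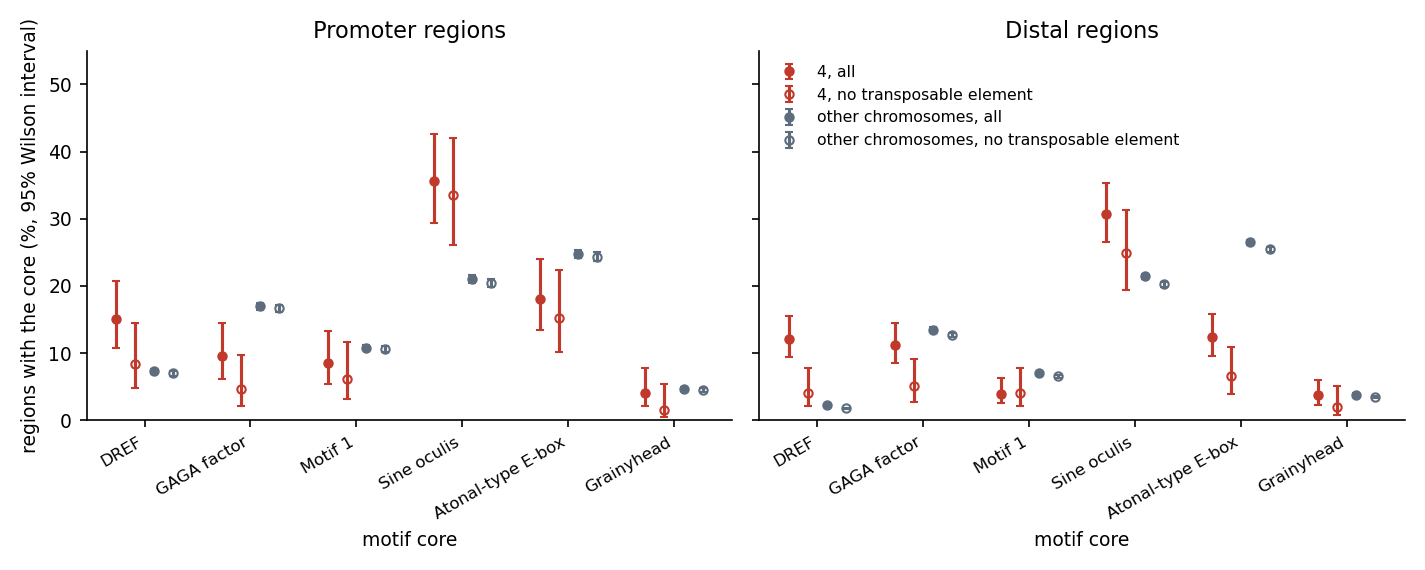
Share of promoter (left) and distal (right) regions with each of 6 motif cores, on chromosome 4 (red) and the other chromosomes (grey), for all regions (filled) and regions without a transposable element (open), with 95% Wilson intervals. The DREF core is in 12.1% of all distal regions of chromosome 4 and in 4.06% of those without an element, and the Atonal-type E-box is lower on chromosome 4 in both panels.

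Cells differed widely in how many of their counts fell on chromosome 4. The pooled share was 0.870% (0.830 to 0.912%) of the counts on all 6 chromosomes and arms, while chromosome 4 held 0.910% of their listed length. The lowest cell had 0.0850% (5 counts), the median cell 0.796% and the highest 2.38% (54 counts), and every cell had at least 1 count in a promoter region of chromosome 4. A cell had a count in 4 to 58 of the 628 regions, with a median of 17. The intervals of 33 of the 72 cells left out the pooled share, 14 above it and 19 below. The share varied 8.03 times as much as binomial counting gives, so intervals of the pooled densities and ratios above understate how much cells differ. Counted at most once per region and cell, this factor was 6.53. The share was only weakly related to depth, with a Pearson coefficient of -0.18 and a Spearman coefficient of -0.14 over 72 cells. Promoter and distal shares of chromosome 4 moved together, with coefficients of 0.75 and 0.75 over the same cells, and so did the parts left and right of the middle of the chromosome, at 0.53 and 0.57. These points share the library of each cell and its total, and the coefficients are given as a description.

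**Figure D5:**
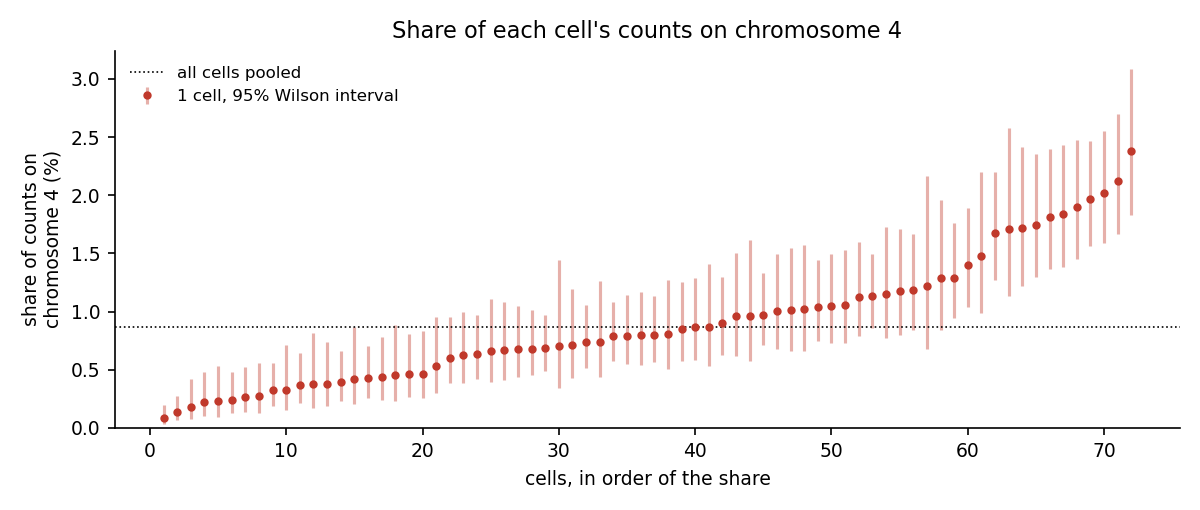
Share of each cell's counts that lay on chromosome 4, for 72 sens-GFP+ cells in order of the share, with 95% Wilson intervals; the dotted line is the pooled share of 0.870%. Shares range between 0.0850% and 2.38%, and the intervals of 33 cells do not include the line.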

How the data were processed

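Open chromatin of single sens-GFP+ cells of the eye-antennal disc was profiled by ATAC-seq. The authors mapped reads with Bowtie2 (2.2.5) to dm6, the release 6 genome, marked duplicates with Picard, and chose the cells to keep manually on aggregation profiles. The authors deposited whole-number counts per region and cell without normalisation. Regions are cisTarget regions, which partition the non-coding genome by conservation between species, and many listed regions overlap an annotated exon. For regions of the bulk samples the methods name featureCounts and fragments. For the single cells, the tool that counted, the unit it counted (read or fragment), any offset for the transposase, and how reads with several matches were handled are not given in the sources used here.

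Counts were summed over the 72 cells with Python 3.11.15, pandas 2.3.3 and scipy 1.17.1 and divided by region length. TSS, exons and transposable elements came from the Ensembl 115 annotation of BDGP6 (overlap of at least 1 bp), GC content and sequences from the RefSeq copy of the same assembly. Region ends lay within the assembled chromosome, and starts are printed counting from 1. The interval functions were tested on simulated data. Genes named were those of 4 fixed lists, the 10 most covered regions overall and the 10 most covered distal ones (200 bp or longer), and the 5 highest and 5 lowest gene windows. The members and lists were chosen with earlier results of these data known. Older symbols Arf102F, Thd1, bip2 and zyx were matched to Arf4, Tdg, Taf3 and Zyx. Alternatives changed the promoter distance, the TSS set, the counting per cell, the weight and depth of cells, the region length, the comparison chromosomes, the window of a gene and single regions.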

Additional observations from a re-analysis of the deposited data

Results flagged for a closer look

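Regions of unplaced scaffolds, which enter no comparison above, had 0.285 counts per kb (interval 0.243 to 0.332) over 576 kb, and are listed because they are signal outside the main comparisons.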

How the results depend on the processing

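Of 85 values recomputed under alternatives listed at the start, 74 stayed within their interval, or for counts of regions and genes within 1.5 times. Some of these could not change. The share of chromosome 4 regions with a count, for example, is the same when each region counts once per cell or when X is left out. With regions of 500 to 2000 bp only, the promoter ratio of chromosome 4 to the others turned to 1.06 (0.987 to 1.13) and the promoter to distal ratio was 2.62. With a promoter distance of 100 bp the promoter ratio was 0.921. With the deeper cells only, the share of counts on chromosome 4 was 0.823%, and regions with a count made up 77.4% of promoter and 54.1% of distal regions, since fewer cells were summed. Genes above the 90th percentile of windows numbered 1 with each region counted once per cell, 1 with introns only and 6 with regions within 1 kb of a TSS, and genes below the 10th numbered 1 with introns only and 2 within 1 kb. In alternatives chosen after seeing the data, the promoter and distal ratios were 1.14 and 1.25 without transposable elements, 0.974 and 0.942 without these and without the 5 most covered regions of each class, 1.30 and 1.79 with an element, and 0.937 and 1.08 at 35 to 45% GC. The promoter to distal ratio was 1.998 without elements, 1.84 with an element and 2.03 at this GC. With the 90th percentile taken anew among the regions kept, distal regions above it numbered 18, 13 and 13 without elements, without these and the 5 regions, and at this GC. Promoter regions numbered 8 without elements and the 5 regions, and 6 with an element. At this GC 98.1% of promoter and 80% of distal regions had a count. Unless stated, the cause was not tested. Depth limits single regions, since 20.9% of the 628 had no count. No paired analysis was possible because every cell carries the same group label.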
